A study of Mus musculus with 4 samples.

Results

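Resting basal keratinocytes are the cells of the innermost epidermal layer chosen here for few or no transcripts of an S phase and a mitosis gene set. They were selected on the measured levels of their own transcripts among the sorted skin cells. In units of UMIs (molecular identifiers, each counting 1 captured RNA molecule) per 10000 UMIs of the cell, a member had at least 50 for Krt5, Krt14 and Krt15 together and under 20 for Krt1 and Krt10 together. It had under 2 for each of 3 sets of hair follicle genes (Shh, Wif1 and Lhx2 of the hair germ, Dkk4, Fgf20 and Sp5 of the placode, and Pthlh, Tafa1 and Krt79 of the hair peg). It also had under 1 for a mitosis set (Ccnb1, Cenpf, Ube2c, Plk1 and Aspm), under 1 for an S phase set (Rrm2, Clspn, Cdc6, Ccne1 and Ccne2) and under 2 for a stress set (Fosl1, Atf3, Cxcl1 and Cxcl2). Of 19789 barcodes, 11221 passed limits of 2000 or more genes per cell and less than 10% of UMIs from mitochondrial genes, and 1007 of these met every term. Ctrl 1 and Ctrl 2 held 388 and 332 members, and TKO 1 and TKO 2 held 89 and 198.

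The cells were Epcam+ α6+ cells sorted from dorsal skin of mouse embryos labelled E16.5, and each library came from 1 embryo. The Ctrl embryos were Suv39h1 f/f, Suv39h2-/-, Setdb1 f/f and K14CreERT2-. The TKO (triple knockout) embryos had the same alleles with K14CreERT2+. Both groups received tamoxifen, and the Suv39h2 deletion was shared by both. A comparison of TKO with Ctrl thus concerns the loss of Suv39h1 and Setdb1 in cells that lack Suv39h2 already. The K14CreERT2 recombinase was present in TKO only, and its own effect cannot be told apart from that loss. The recombinase was driven by the Krt14 promoter, which is active in basal cells, and the study describes the TKO embryos as mosaic. The study's list of litters gives an earlier embryonic day than the labels for its single-cell litter, and the labels were followed.

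Basal keratinocytes sit on the basement membrane, make the keratins Krt5 and Krt14, and either divide, wait or detach to become the suprabasal cells that build the skin barrier. Setdb1, Suv39h1 and Suv39h2 are the enzymes that trimethylate lysine 9 of histone H3 (H3K9me3), a mark of closed chromatin that keeps transposons and genes of other tissues silent. Krt15 and Dlk2 are known markers of basal cells at rest, and the factor p63, encoded by Trp63, sets basal identity.

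The share of members among kept cells was 12.1% in Ctrl 1, 9.79% in Ctrl 2, 4.12% in TKO 1 and 8.01% in TKO 2. The exact 95% binomial intervals, which cover counting error only, were 11.03% to 13.3%, 8.81% to 10.8%, 3.32% to 5.04% and 6.97% to 9.15%. Both TKO libraries lay below both Ctrl libraries, and the mean difference was -4.90 percentage points. These shares were set by the terms of the rule and are a description without a test. The cell cycle terms kept 34.6% and 42.8% of the cells that reached them in Ctrl and 16.1% and 21.6% in TKO. The stress term kept 73.6%, 42.0%, 51.4% and 86.5%, so for that term the spread within each genotype was wider than the gap between them. When cells with 5 or more UMIs per 10000 of any fibroblast, immune, melanocyte or endothelial marker set were left out, the difference turned to 0.86 points. That limit left 105 and 71 members in Ctrl and 36 and 91 in TKO. At a limit of 50, chosen after seeing the data, the difference was -4.60 points.

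Part of the members lay close to a limit. For the stress limit of 2, 16, 23, 3 and 5 members of Ctrl 1, Ctrl 2, TKO 1 and TKO 2 were within 20% below it. For the keratin limit of 50, 11, 4, 4 and 2 members of Ctrl 1, Ctrl 2, TKO 1 and TKO 2 were within 20% above it, and 9, 2, 2 and 1 cells that met every other term were within 20% below it. For the S phase limit of 1 these numbers were 28, 5, 8 and 17 inside, and 21, 15, 6 and 14 outside.

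The members summed to 7637847 UMIs in Ctrl 1, 5224327 in Ctrl 2, 2154420 in TKO 1 and 4566476 in TKO 2, with medians of 18554, 14770, 22114 and 21660.5 UMIs per cell. TKO 1 was thus the shallowest sum and had the fewest cells. Barcode sequences shared by 2 libraries numbered 2 to 12 per pair and none was a member. Doublet scoring marked 6, 2, 1 and 3 members, which were kept. Levels below are CPM, the UMIs of a gene scaled to a fixed total per library with TMM factors, and are given in the order Ctrl 1, Ctrl 2, TKO 1 and TKO 2 where the libraries are not named. CPM of 3' reads compares a gene between libraries, not genes with each other.

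The label was checked against basal markers. Krt5 stood at 4632, 4851, 3709 and 4817 CPM and Krt14 at 7814, 8396, 5672 and 8627 CPM, with the groups overlapping for both. Krt15 stood at 5931 and 6856 CPM in Ctrl 1 and Ctrl 2 and 3156 and 3035 CPM in TKO 1 and TKO 2. All 3 genes were used in the selection, and these levels are a description. Among basal markers that the rule did not use, the integrin genes Itga6 and Itgb4, which encode the hemidesmosome receptor of basal cells, stood at 569, 575, 379 and 561 CPM and at 121, 124, 119 and 135 CPM. Trp63 stood at 962, 996, 509 and 720.5 CPM (adjusted p = 0.0796), and Col17a1, a hemidesmosome collagen, at 431, 425, 214 and 328 CPM (adjusted p = 0.123). All of these markers were present in every library, which bears on basal identity and not on rest. Members are called resting through the cell cycle terms of the rule. Krt15 and Dlk2, named above as markers of rest, were both lower in each TKO library than in each Ctrl library.

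Dlk2, a transmembrane protein that inhibits Notch signalling and marks resting basal cells, stood at 70.4 and 66.6 CPM in Ctrl 1 and Ctrl 2 and 24 and 31.6 CPM in TKO 1 and TKO 2. Both TKO libraries were lower than both Ctrl libraries (log2 change -1.25 ± 0.17 (SE), adjusted p = 0.0148). The call was lost without either Ctrl library. The 9 proliferation genes outside the rule summed to 529.97, 457, 326 and 460.03 CPM. Mki67 stood at 12.3, 12.7, 10.9 and 15.9 CPM and Top2a at 18.7, 13, 7.42 and 14.2 CPM, whereas the DNA replication genes Pcna and Mcm6 stood at 88.7, 78.1, 66.8 and 85 CPM and 92.3, 88.4, 48.9 and 79 CPM. At 5000 UMIs Pcna was detected in 30.4%, 29.2%, 23.6% and 33.3% of members, so transcripts linked to S phase were present in part of them. None of the 9 passed the test by edgeR, and none had an unadjusted p under 0.05.

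**Figure D1:**
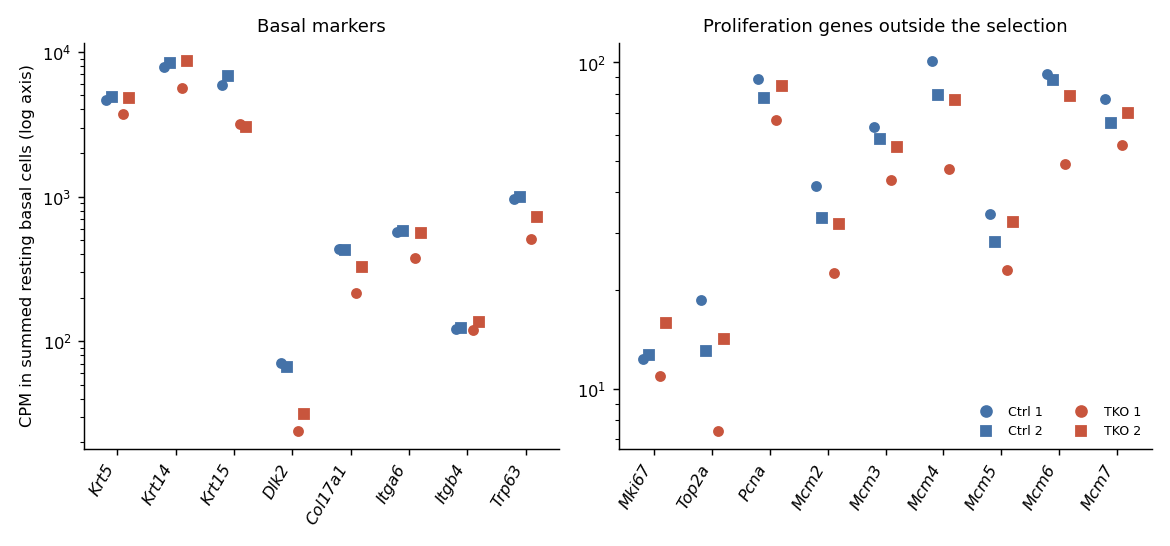
Basal marker genes and proliferation genes in resting basal cells, in CPM (log axis) for each of the 4 libraries, with Ctrl and TKO in separate colours. The basal keratins lie above 3000 CPM in every library, Dlk2 is lower in both TKO libraries, and Mki67 lies between 10.9 and 15.9 CPM.

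Transcripts of other cell types were present. The 6 fibroblast genes summed to 1390.2 and 1546 CPM in Ctrl and 834 and 961 CPM in TKO, of which Dcn, a proteoglycan gene, made up 87.7%, 91.6%, 98.2% and 90.4%. Dcn was detected in 90.1%, 91.8%, 75.3% and 78.8% of members after thinning to 5000 UMIs, while Col1a1, the main fibroblast collagen, was detected in 1.82%, 2.43%, 0% and 2.02%. At full depth Col1a1 UMIs were found in 16, 20, 6 and 12 members. The ratio of Dcn to Col1a1 UMIs was 22.1, 40.6, 268 and 38.1 in members and 0.357, 0.368, 0.392 and 0.334 in cells of the same libraries with at least 50 UMIs per 10000 of Col1a1, Col1a2 and Col3a1 together and keratins under the limit (collagen-high cells below), so members and collagen-high cells held these transcripts in different ratios. The immune genes tested, Fcer1g and Tyrobp, stood at 5.42, 10.3, 17.5 and 9.74 CPM and 3.39, 5.06, 8.73 and 4.87 CPM, and the endothelial genes Pecam1 and Egfl7 at 2.98, 0.974, 2.18 and 1.55 CPM and 14.8, 13.6, 24 and 12.6 CPM. The 5 endothelial genes summed to 17.7, 14.6, 27.1 and 14.4 CPM, with Cdh5 and Cldn5 at 0 in every library. The 6 Merkel cell genes summed to 17.3, 18.3, 37.1 and 25.2 CPM. Of these Krt20 and Atoh1 were at 0 in every library, Krt8 stood at 10.2, 9.15, 18.8 and 5.97 CPM and Krt18 at 5.96, 7.79, 18.3 and 18.8 CPM, and Krt18 was called raised.

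The targeted genes came first among the comparisons. Setdb1 (ENSMUSG00000015697.15, chr3:95229399-95264541 in GRCm39) stood at 76.5 and 74.8 CPM in Ctrl 1 and Ctrl 2 and 40.2 and 49.6 CPM in TKO 1 and TKO 2. Suv39h1 (chrX:7927403-7940999) stood at 21.4 and 18.7 CPM in Ctrl 1 and Ctrl 2 and 10 and 12.4 CPM in TKO 1 and TKO 2. In both genes each TKO library lay below each Ctrl library, but neither passed the edgeR test (Setdb1, log2 change -0.72 ± 0.15 (SE), adjusted p = 0.054, and Suv39h1, log2 change -0.79 ± 0.22 (SE), adjusted p = 0.106). Suv39h2 (chr2:3455774-3476146), whose deletion both groups carried, stood at 13.3, 8.96, 12.7 and 8.85 CPM, and the groups overlapped. Reads from the 3' end were counted, so transcripts that lose internal exons can still be counted, and whether these values report the deletion was not tested.

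In resting basal cells 406 of 12995 genes were raised in TKO, 3.12% of those tested, and 142 were lowered, 1.09%. The test was edgeR's quasi-likelihood test on the sums of 2 libraries per genotype, at a Benjamini-Hochberg adjusted p under 0.05, and the rule's own genes were left out of the counts. The median log2 change over all genes tested was -0.00204. The raised genes together rose from 16563 and 15806 CPM in Ctrl to 40219 and 37025 CPM in TKO. The lowered genes fell from 34588 and 35898 CPM to 19922.5 and 22697 CPM. The number of raised genes was 113 without Ctrl 1, 154 without Ctrl 2, 822 without TKO 1 and 1241 without TKO 2, and of lowered genes 21, 26, 567 and 985. It was 126 raised and 27 lowered when cells with transcripts of other types were left out at the limit of 5, which removed most members, and 407 raised and 133 lowered at the limit of 50. Of 88 genes named here that passed the test, 52 lost the call without Ctrl 1, 46 without Ctrl 2. Without 1 library the group left with 1 is assumed to vary as the other group does, so the fits without a TKO library take their spread from the Ctrl libraries alone and say nothing of stability. A group of 27 kept it under every setting in which it was tested, namely 1700030N03Rik, Adamts9, Atf7ip, Bex1, Ccng1, Cdh4, Cdkn1a, Col28a1, Ddit4l, ENSMUSG00000120763, Eda2r, Exoc4, Gm11884, Gm36551, Gm42653, Gria3, Kitl, Npffr1, Ror1, Rps4l, Slc24a3, Tcfl5, Tdrd1, Tex15, Tmsb10, Tmtc1 and Trp53inp1. Each library was 1 embryo, and p-values rest on the spread between 2 embryos per group. The study states that both sexes were present in each group of its sequencing experiments, and sex was not a term of the fit.

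**Figure D2:**
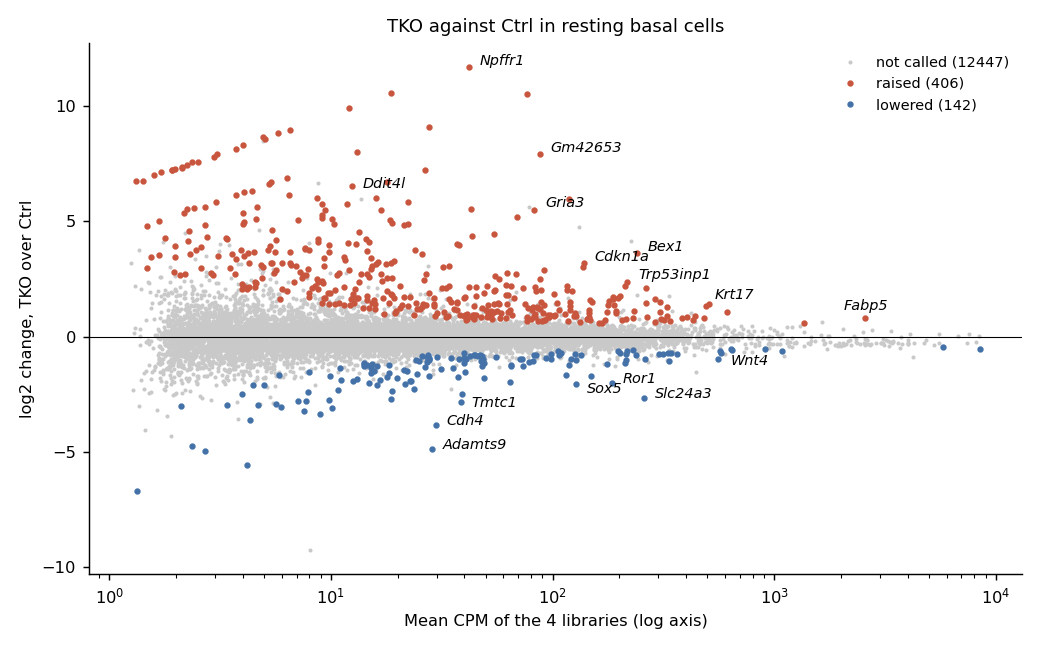
Log2 change in TKO against mean CPM (log axis) for each of the 12995 genes tested in resting basal cells, with raised, lowered and other genes in separate colours. The 406 raised genes include many that are near 0 in Ctrl and reach log2 changes above 5, whereas few of the 142 lowered genes fall below -3.

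Npffr1, the gene of a neuropeptide FF receptor of the nervous system, is among the 10 raised genes with the largest fitted log2 change and a mean of at least 10 CPM in TKO. It had 0 UMIs in both Ctrl libraries, so its fold is known only as a lower limit. Its promoter and those of 4 other genes are shown here, because the data compare genes that were low or at 0 in Ctrl with genes that fell from a higher Ctrl level. Each line gives the 250 bases before the annotated start of the canonical transcript (GENCODE vM39, GRCm39), on the gene's strand, in lower case with CG dinucleotides in capitals. CG dinucleotides are the target of DNA methylation, and promoters dense in them are called CpG islands. The first 3 genes were raised and the last 2 lowered.
Npffr1: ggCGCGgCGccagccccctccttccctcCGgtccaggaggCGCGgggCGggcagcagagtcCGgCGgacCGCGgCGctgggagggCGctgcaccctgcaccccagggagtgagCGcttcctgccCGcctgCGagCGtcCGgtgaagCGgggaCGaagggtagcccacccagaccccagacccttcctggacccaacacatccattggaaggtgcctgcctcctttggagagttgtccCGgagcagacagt
Col28a1: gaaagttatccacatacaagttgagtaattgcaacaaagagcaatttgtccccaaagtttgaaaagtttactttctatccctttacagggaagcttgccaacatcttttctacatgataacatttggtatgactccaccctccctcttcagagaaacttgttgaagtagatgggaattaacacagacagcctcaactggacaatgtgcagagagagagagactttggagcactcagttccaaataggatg
Gria3: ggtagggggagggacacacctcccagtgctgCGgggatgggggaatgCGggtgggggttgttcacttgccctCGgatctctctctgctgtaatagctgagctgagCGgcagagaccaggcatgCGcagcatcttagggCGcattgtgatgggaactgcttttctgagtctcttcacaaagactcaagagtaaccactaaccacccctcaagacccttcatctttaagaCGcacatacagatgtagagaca
Adamts9: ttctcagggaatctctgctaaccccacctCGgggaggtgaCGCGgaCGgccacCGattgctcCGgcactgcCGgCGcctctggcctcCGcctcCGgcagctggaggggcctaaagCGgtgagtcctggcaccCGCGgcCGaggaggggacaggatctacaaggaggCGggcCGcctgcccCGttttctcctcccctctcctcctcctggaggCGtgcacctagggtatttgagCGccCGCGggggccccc
Slc24a3: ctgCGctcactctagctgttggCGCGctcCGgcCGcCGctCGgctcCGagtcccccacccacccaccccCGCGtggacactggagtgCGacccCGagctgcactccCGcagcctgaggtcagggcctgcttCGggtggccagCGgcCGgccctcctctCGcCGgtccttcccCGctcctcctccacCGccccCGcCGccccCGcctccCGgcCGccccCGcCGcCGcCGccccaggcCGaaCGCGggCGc

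These stretches lie at chr10:61431021-61431270 (plus strand), chr6:8192618-8192867 (minus strand), chrX:40489226-40489475 (plus strand), chr6:92920521-92920770 (minus strand) and chr2:145009424-145009673 (plus strand). They held 21, 0, 7, 21 and 33 CG dinucleotides. Npffr1 was the exception among the 10 raised genes with the largest fitted log2 change, of which 1 held 10 or more and the median was 3.5. Of the 10 lowered genes chosen likewise 7 held 10 or more, with a median of 18.5. Over all genes tested the median was 12 CG in 250 bases and 61.8% held 10 or more. The median was 9 for the raised genes (48.4% with 10 or more), 10 for the lowered genes (52.1%) and 5 for the 93 raised genes that were under 1 CPM in both Ctrl libraries (33.3%). A CG count describes the sequence and says nothing of its methylation here.

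Npffr1 (chr10:61430652-61464344) had 0 UMIs in 388 and 332 Ctrl members and stood at 71.6 and 96.0 CPM in the TKO libraries. Against a limit of 3 UMIs over the Ctrl group the level was at least 381-fold higher in TKO (adjusted p = 0.00115). UMIs of Npffr1 occurred in 30 TKO 1 and 59 TKO 2 members, with up to 22 and 57 in 1 cell. The predicted gene Gm28447 overlaps it on the opposite strand and was raised too, and since the strand setting of the counting is not stated, reads of the pair cannot be told apart.

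Gria3 (chrX:40489476-40767490), a subunit of the AMPA-type glutamate receptor of synapses, stood at 5.83 and 0.779 CPM in Ctrl 1 and Ctrl 2 and 202 and 121 CPM in TKO 1 and TKO 2 (log2 change 5.50 ± 0.58 (SE), adjusted p = 0.00677). Col28a1 (chr6:7997102-8192617), a minor collagen, stood at 0 and 0.195 CPM in Ctrl 1 and Ctrl 2 and 33.2 and 77.4 CPM in TKO 1 and TKO 2, a ratio of 815 with a counting interval of 146 to 32276. Svop, a synaptic vesicle protein gene, stood at 0 and 0 against 19.2 and 6.86 CPM, at least 47.8-fold higher. The 2 groups did not overlap in any of these genes, and the Col28a1 and Svop values of the 2 TKO libraries differed by more than 2-fold.

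Long non-coding RNAs and predicted genes were frequent at the top. The lncRNA 1700030N03Rik stood at 0.135 and 0 CPM in Ctrl 1 and Ctrl 2 and 171 and 136 CPM in TKO 1 and TKO 2, Gm11884 at 0 and 0 against 17.0 and 57.3 CPM, and Gm36551 at 0 and 0 against 20.9 and 27.4 CPM. UMIs of 1700030N03Rik occurred in only 13 TKO 1 and 21 TKO 2 members, with up to 142 and 167 in 1 cell, whereas Gm42653 (0.813 and 0.584 CPM in Ctrl 1 and Ctrl 2 and 226 and 123 CPM in TKO 1 and TKO 2) was found in 52.8% and 38.4% of TKO members at 5000 UMIs and in 0.260% and 0.304% of Ctrl members. The same group held D7Ertd128e, 3100003L05Rik and ENSMUSG00000120763, each at 0 to 0.135 CPM in Ctrl. Of the raised genes 11.6% were lncRNAs, against 8.06% of all genes tested, and 93 of 406 were under 1 CPM in both Ctrl libraries. Such genes passed the filter on low values only through the TKO libraries. Of the lowered genes 6 of 142 were under 1 CPM in both TKO libraries, and of all genes tested 180 of 12995 (1.39%) were under 1 CPM in both libraries of their lower group.

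Another raised gene lay within 100 kb for 78 of 405 raised genes with a position (19.3%), against 7.30% of all genes tested. Overlapping genes count as neighbours here, so pairs whose reads cannot be told apart, such as Npffr1 and Gm28447, are included. Lrrc20, Gm28447 and Npffr1 followed each other at chr10:61311562-61464344, where the sum rose from 7.32 and 9.54 CPM in Ctrl to 109 and 133 CPM in TKO. A run of 5 predicted genes from Gm5953 to Gm6802, of 6 tested in the span, lay at chr12:19338563-19540658 (7.86, 6.62, 43.2 and 45.4 CPM), and near-identical copies can split reads between them. Tap1, Tap2 and H2-Eb1 of the MHC region, which load or present peptides, followed each other at chr17:34405996-34535648 and summed to 8.13, 8.37, 132 and 40.3 CPM. In the remaining run of 3 or more raised genes, 3 of 12 tested genes were raised. Lowered genes had a lowered neighbour in 13 of 142 cases (9.15%, against 2.77% of all genes tested).

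Among abundant genes the largest gains were smaller in fold. Fabp5, a fatty acid carrier of the epidermis, stood at 2023 and 1788 CPM in Ctrl 1 and Ctrl 2 and 3015 and 3511 CPM in TKO 1 and TKO 2 (log2 change 0.80 ± 0.11 (SE), adjusted p = 0.016). Krt17, a keratin of hair follicles and injured epidermis, stood at 300.2 and 261 CPM in Ctrl 1 and Ctrl 2 and 541 and 863 CPM in TKO 1 and TKO 2 (log2 change 1.35 ± 0.21 (SE), adjusted p = 0.0203). Bex1, a small brain-expressed protein gene on the X chromosome, stood at 39.6 and 34.7 CPM in Ctrl 1 and Ctrl 2 and 577 and 313 CPM in TKO 1 and TKO 2 (log2 change 3.61 ± 0.31 (SE), adjusted p = 0.00359). All TKO values lay above all Ctrl values for these 3 genes, but the calls of Fabp5 (without Ctrl 2) and Krt17 (without either Ctrl library) were lost when a library was left out, and Bex1 kept its call under every setting run. Exoc4 of the exocyst complex (299.5, 263, 751 and 713 CPM), Tmsb10, an actin-binding thymosin (411, 389, 779.9 and 868 CPM), and Ifitm3, an interferon-induced membrane protein (161, 165, 368 and 532 CPM), rose as well. Rps4l, a ribosomal protein S4 copy, rose (102, 99.1, 439 and 421 CPM) inside the gene body of Tmtc1 on the opposite strand, and near-identical copies make its reads uncertain.

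**Figure D3:**
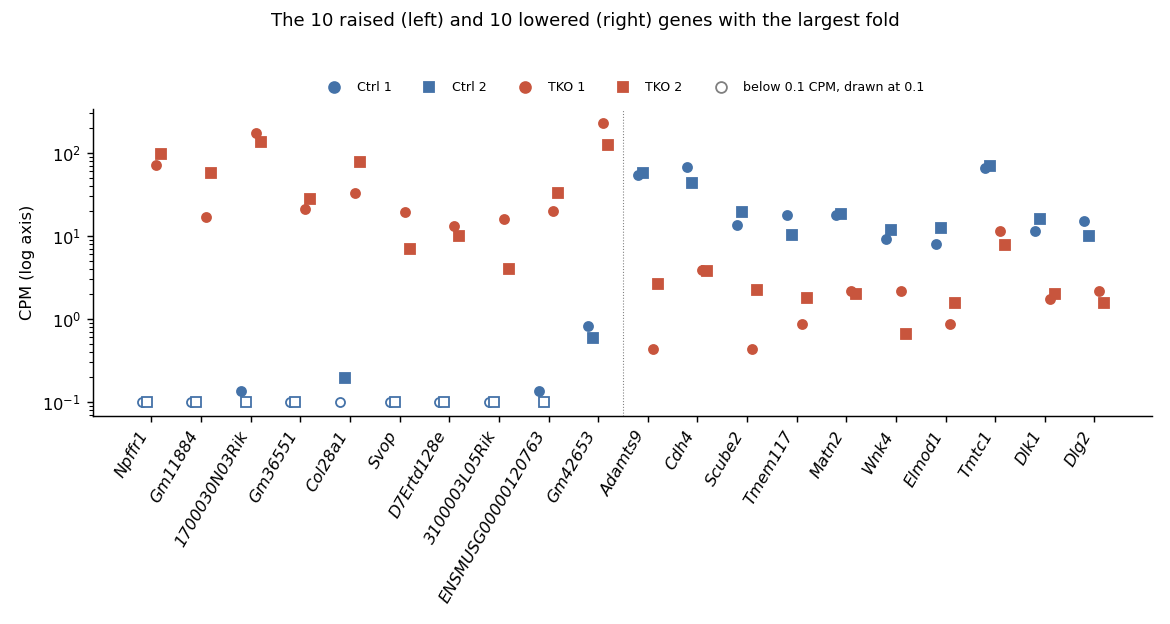
CPM (log axis, values under 0.1 drawn as open points at 0.1) in each library for the 10 raised and 10 lowered genes with the largest fitted log2 change in resting basal cells. No TKO library overlaps a Ctrl library for any of the 20 genes, which was a condition of choosing them. Of the 10 raised genes 6 were at 0 in both Ctrl libraries.

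Adamts9 (chr6:92749680-92920520), a secreted protease that cleaves matrix proteoglycans, stood at 54.2 and 57.2 CPM in Ctrl 1 and Ctrl 2 and 0.436 and 2.66 CPM in TKO 1 and TKO 2 (log2 change -4.86 ± 0.36 (SE), adjusted p = 0.00253). Slc24a3 (chr2:145009674-145484086), a sodium, potassium and calcium exchanger, stood at 503 and 389.6 CPM in Ctrl 1 and Ctrl 2 and 75.5 and 63.3 CPM in TKO 1 and TKO 2 (log2 change -2.66 ± 0.18 (SE), adjusted p = 0.00195). Cdh4, R-cadherin, stood at 67.3 and 43.6 CPM in Ctrl 1 and Ctrl 2 and 3.93 and 3.76 CPM in TKO 1 and TKO 2 (log2 change -3.83 ± 0.31 (SE), adjusted p = 0.00306). Each kept its call under every setting run. Only 1 TKO 1 member and 8 TKO 2 members had any Adamts9 UMI, against 134 and 101 Ctrl members. The collagen-high cells of the same libraries carried Adamts9 at 255, 200.4, 273 and 212 CPM, with the groups overlapping.

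Further lowered genes were Scube2, a secreted protein that releases Hedgehog ligands (13.5, 19.5, 0.436 and 2.21 CPM), Matn2, a matrix protein (17.6, 18.5, 2.18 and 1.99 CPM), Wnk4, a kinase of ion transport (9.08, 11.9, 2.18 and 0.664 CPM), and Tmtc1, which overlaps Rps4l as given above (64.6, 70.1, 11.3 and 7.74 CPM). Among called genes outside the rule, the largest falls by difference of level were in Tpt1 (9682, 10559, 6212 and 7525 CPM) and the ribosomal protein gene Rplp0 (6633, 6755, 4719 and 5009 CPM). Both lost the call without either Ctrl library. Dcn stood at 1219, 1417, 819 and 869 CPM (log2 change -0.62 ± 0.12 (SE), adjusted p = 0.0404) and lost its call likewise. Dlk1, a relative of Dlk2, fell (11.4, 15.8, 1.75 and 1.99 CPM), but its UMIs lay in 3, 7, 4 and 5 members, with up to 79 and 75 in 1 Ctrl cell, and the collagen-high cells held it at 2872, 6283, 4237 and 4021 CPM.

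For the lists given from here on, the shares over all genes tested were 3.12% raised and 1.09% lowered. p53 target genes formed the list with the most calls. Of 24 measured, 18 rose and none fell, and the median log2 change was 1.60, against -0.00204 over all genes, of which 3.12% rose. p53 is a transcription factor that is stabilised by DNA damage and other stress and turns on genes for cell cycle arrest, repair and death. Cdkn1a (p21, chr17:29309936-29319701), the inhibitor that stops cyclin-dependent kinases, stood at 26.6 and 29.4 CPM in Ctrl 1 and Ctrl 2 and 302 and 197 CPM in TKO 1 and TKO 2 (log2 change 3.19 ± 0.24 (SE), adjusted p = 0.00253). Trp53inp1, a stress-induced cofactor of p53, stood at 71 and 71.5 CPM in Ctrl 1 and Ctrl 2 and 424 and 304 CPM in TKO 1 and TKO 2 (log2 change 2.38 ± 0.19 (SE), adjusted p = 0.00306). Ccng1, cyclin G1, stood at 24.4 and 29.4 CPM in Ctrl 1 and Ctrl 2 and 178 and 118 CPM in TKO 1 and TKO 2 (log2 change 2.49 ± 0.24 (SE), adjusted p = 0.0052). These 3 genes kept their calls under every setting run, with both TKO libraries several-fold above both Ctrl libraries and TKO 1 above TKO 2.

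Death-related targets rose with them. Bax, which permeabilises mitochondria, stood at 91.2, 94.2, 341 and 220.4 CPM, Fas, a death receptor, at 3.39, 5.26, 33.2 and 17.5 CPM, Pmaip1 (Noxa) at 8.53, 16.9, 58.9 and 48.2 CPM and the receptor gene Eda2r at 1.35, 0.779, 28.4 and 23 CPM. Bbc3 (Puma, 16.1, 16.9, 43.2 and 26.3 CPM, adjusted p = 0.0837) and Tnfrsf10b (3.25, 4.09, 13.5 and 8.41 CPM, adjusted p = 0.0754) did not pass the test. The feedback genes were Mdm2, the ligase that degrades p53 (56.6, 43.4, 118 and 104 CPM), and Phlda3, an Akt inhibitor (72.5, 69.7, 151 and 117 CPM), both raised. Perp, also a desmosome gene of epidermis, and Sesn1 had log2 changes of -0.34 ± 0.13 and -0.25 ± 0.15 and were not called. In all 24 genes the groups did not overlap, which held for 6634 of the 12995 genes tested. The raised count was 8 without Ctrl 1, 11 without Ctrl 2, 19 without TKO 1 and 22 without TKO 2, and 9 and 18 with cells carrying transcripts of other types left out at the limits of 5 and 50.

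**Figure D4:**
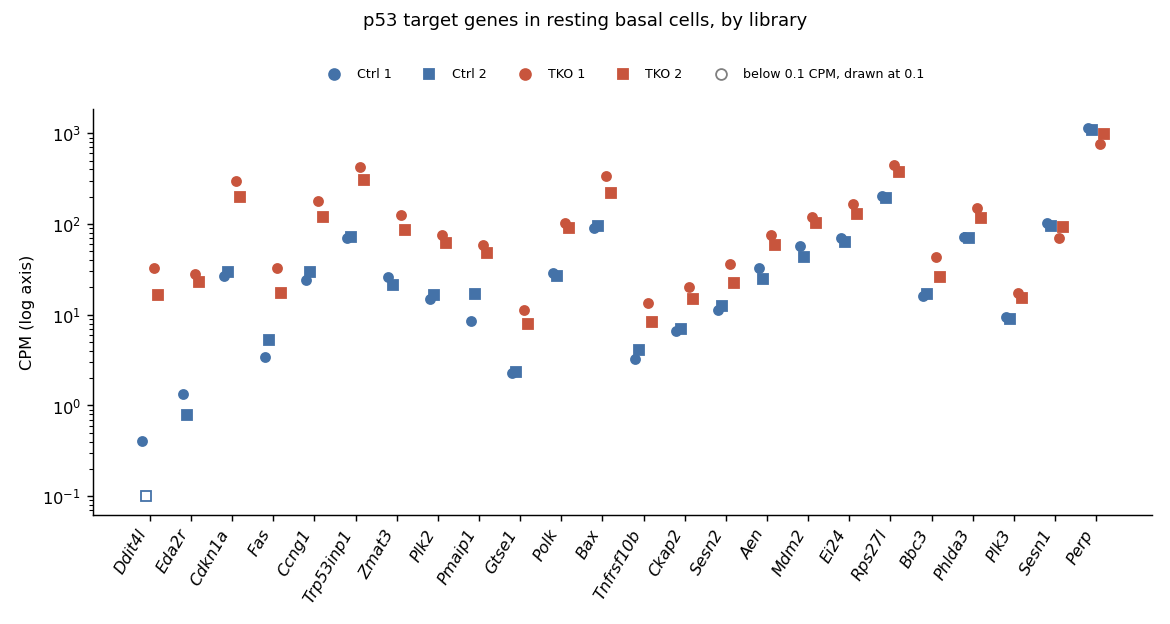
CPM (log axis) of 24 p53 target genes in resting basal cells in each library, Ctrl and TKO in separate colours. For 22 genes both TKO libraries lie above both Ctrl libraries, and Perp and Sesn1 lie below. Over all genes tested the groups did not overlap in 6634 of 12995.

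Of 18 inhibitors and G1 regulators, Cdkn1a and Cdkn2b rose and none fell, with a median log2 change of -0.14. Cdkn2b (p15), an inhibitor of Cdk4 and Cdk6, stood at 0.406, 0.584, 6.55 and 4.87 CPM. Its UMIs lay in 3, 1, 6 and 6 members, and 13 of the 22 in TKO 2 were in 1 cell. Ccnd2, cyclin D2, stood at 1216, 1102, 842 and 982 CPM (adjusted p = 0.198).

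The glycolysis and hypoxia list was next by number of calls. Of its 21 genes measured, 10 rose and none fell, against 3.12% and 1.09% of all genes tested. The median log2 change of the list was 0.83. The raised genes were enzymes along the pathway from glucose to lactate. Hk2, the first step, stood at 35.5, 38.6, 65 and 72.6 CPM and Eno1 at 140.5, 109, 243 and 278 CPM. Ldha, which makes lactate, stood at 313, 313, 545 and 589 CPM (log2 change 0.88 ± 0.11 (SE), adjusted p = 0.0107), and Gapdh at 1116, 1090.4, 1733 and 1522 CPM (log2 change 0.59 ± 0.12 (SE), adjusted p = 0.0457). Every TKO value lay above every Ctrl value in these 4 genes. Slc2a1, the glucose transporter, and Pdk1 were not called (406, 457, 336 and 412 CPM and 86.8, 77.1, 86 and 111 CPM). None of the list was called without Ctrl 1 or without Ctrl 2, and 1 was called with cells carrying transcripts of other types left out, while the median stayed between 0.65 and 0.84 over all settings.

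Genes of other tissues were mostly too low to test. Of 31 neuronal genes 11 could be tested, and 5 rose (Npffr1, Svop, Gria3, Gria4 and Cntn1) while 2 fell (Grik4 and Dlg2). Gria4 stood at 1.22, 0.779, 62.8 and 9.07 CPM and Grik4, a kainate receptor subunit, at 51.3, 52, 18.3 and 21 CPM. Of 30 germline and meiosis genes 6 could be tested and 4 rose. Tcfl5, a spermatocyte transcription factor, stood at 0.406, 0.389, 17 and 19.7 CPM, Tdrd1, of the piRNA pathway, at 1.49, 1.56, 19.2 and 29.7 CPM, Tex15 at 4.74, 4.09, 32.3 and 26.1 CPM and Stag3, a meiotic cohesin, at 0.677, 0.389, 5.24 and 7.97 CPM. Germline genes such as Dazl and Ddx4 stayed between 0 and 2.18 CPM in every library. A gene that was near 0 in Ctrl could be tested only if it was higher in TKO, so these counts lean to the raised side. Over all genes tested 3.12% rose and 1.09% fell. The lists were chosen with earlier results of these data known, so the counts are a description.

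Basement membrane genes showed the opposite balance. Of 22 measured, 4 fell (Adamts9, Col4a6, Col7a1 and Fras1) and none rose, against 1.09% of all genes lowered. The median log2 change was -0.29, with 3 higher and 8 lower at an unadjusted edgeR p under 0.05. Adamts9 is on the list as a secreted protease and not as a structural component. Col4a6, a collagen chain of basement membranes, stood at 248, 244, 97.3 and 117 CPM. Col7a1, the anchoring fibril collagen, stood at 132, 130.5, 54.6 and 77.4 CPM, and Fras1, which links epidermis and dermis in the embryo, at 1092, 1083, 704 and 763 CPM. Without Ctrl 1 or without Ctrl 2 only Adamts9 was called, whereas 11 were lowered and 3 raised without TKO 2. DESeq2 called 1 raised and 5 lowered, a fit with the replicate number as a block 1 and 3, and one with the numbers crossed between genotypes 3 and 5. The hemidesmosome and focal adhesion list had no call among 16 genes by edgeR, with 2 higher and 4 lower at an unadjusted p under 0.05 and a median log2 change of 0.03.

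Most transcription factors of the epidermis did not pass the test. Of 35 measured, Sox5, Tfap2c, Klf4 and Bcl11b fell and Trps1 rose, with a median log2 change of -0.21. Sox5 stood at 198 and 217 CPM in Ctrl 1 and Ctrl 2 and 31.4 and 64.2 CPM in TKO 1 and TKO 2 (log2 change -2.06 ± 0.28 (SE), adjusted p = 0.0148). Klf4, a factor of barrier formation, stood at 274, 279, 173 and 192 CPM, Tfap2c (AP-2 gamma) at 120.3, 156, 71.1 and 82.3 CPM, Bcl11b at 782, 778, 538 and 485 CPM and Trps1 at 53.5, 29, 110.4 and 109 CPM. Leaving out 1 library gave 1 raised and 1 lowered without Ctrl 1, 0 and 1 without Ctrl 2, 3 and 9 without TKO 1, and 7 and 13 without TKO 2. No factor of the list was called with a keratin limit of 100. With cells carrying transcripts of other types left out, none was called at the limit of 5. At the limit of 50, 1 factor was raised and 3 were lowered.

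Of the 13 tested suprabasal and barrier genes, Fabp5 and Sbsn rose and none fell. Sbsn (suprabasin) stood at 20.7, 20.4, 38.4 and 37.8 CPM, and Lgals7, an abundant epidermal galectin, at 2913, 2869.9, 1347 and 3147 CPM, where TKO 1 was lowest and TKO 2 highest. Krt17 and Krt18 rose among 8 simple and stress keratins. Krt18 (5.96, 7.79, 18.3 and 18.8 CPM) came from 15, 5, 4 and 7 members, and 1 cell held 25 of 44, 28 of 40, 36 of 42 and 73 of 85 of its UMIs. Krt7 (32.8, 81.8, 244 and 54.2 CPM) and Krt19 (14.4, 42.4, 214 and 1.99 CPM) did not pass, and their groups overlapped.

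Of 32 Wnt genes Ror1 and Wnt4 fell and none rose. Ror1, a receptor for Wnt5a, stood at 286 and 310.0 CPM in Ctrl 1 and Ctrl 2 and 76.8 and 70.1 CPM in TKO 1 and TKO 2 (log2 change -1.99 ± 0.14 (SE), adjusted p = 0.00195) and kept its call under every setting run. Wnt4, a ligand made by basal cells, stood at 704, 745, 443 and 419 CPM. Of 16 Notch genes the receptor gene Notch2 rose (15, 17.7, 32.7 and 29.7 CPM) and the inhibitors Dlk2 and Dlk1 fell, the latter with nearly all of its Ctrl UMIs in 1 cell of each library as given above. With doublets left out Dlk1 was not tested and 1 of 15 Notch genes was lowered. Notch1 stood at 305, 294, 373 and 432 CPM (adjusted p = 0.0873). Of 23 BMP and TGF-beta genes Id1, a direct target, rose (59.2, 44.6, 90.8 and 148 CPM) and the ligand gene Bmp4 fell (7.86, 8.57, 1.31 and 2.21 CPM).

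None of 10 Hedgehog genes was called by edgeR, 3 had an unadjusted p under 0.05, and the median log2 change was -0.40. Gas1, a co-receptor, stood at 368, 399, 165 and 252 CPM (adjusted p = 0.0586), and the receptor gene Ptch1 at 315, 347, 102 and 388 CPM, where TKO 1 was lowest and TKO 2 highest. Of 21 EGF and FGF genes Nrg1, a ligand of ErbB receptors, rose (7.45, 3.5, 15.7 and 23.7 CPM). The Nrg1 call was lost without either Ctrl library, and its log2 change turned to -0.46 with the stress cells kept. Egfr stood at 339, 351, 642 and 422 CPM (adjusted p = 0.147). Of 12 cytokine genes Kitl, which supports melanocytes, rose (159, 125, 433 and 342 CPM), and Pdgfc (399, 395, 238 and 222 CPM) and Nppc (5.55, 5.06, 0 and 0.221 CPM) fell. Cxcl14, an epidermal chemokine, stood at 1354, 1502, 908 and 678 CPM (adjusted p = 0.0503).

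Cytoskeletal genes rose in 4 of 19 cases (Tpm1, Tpm2, Vim and Tmsb10) and fell in none, against 3.12% and 1.09% of all genes tested. The median log2 change of the list was 0.44. The raised count was 1 without Ctrl 1, 3 without Ctrl 2, 7 without TKO 1 and 13 without TKO 2. Vim, an intermediate filament of fibroblasts and other mesenchymal cells, was found in 31, 21, 22 and 29 members, with up to 56 UMIs in 1 cell, and stood at 3021, 3431, 2477 and 2514 CPM in collagen-high cells. Its call was lost by DESeq2, without either Ctrl library, at 5000 UMIs, with a keratin limit of 100, and when cells carrying transcripts of other types were left out by either limit. Tpm1, a tropomyosin of actin filaments, stood at 70 and 82.9 CPM in Ctrl 1 and Ctrl 2 and 446 and 248 CPM in TKO 1 and TKO 2 (log2 change 2.22 ± 0.29 (SE), adjusted p = 0.0135), and the call was lost without Ctrl 1. Actb and Actg1 stood at 1779, 1915, 2408 and 2104 CPM and 1026, 1183, 1627 and 1390.0 CPM and were not called. Of 22 junction genes Cldn4, a tight junction claudin, rose (11.7, 16.9, 45 and 30.5 CPM). The 23 immediate early and stress genes outside the rule had no call by edgeR and 7 at an unadjusted p under 0.05. Their sum was highest in TKO 1 (2977, 3142, 4815 and 3064 CPM). Without TKO 2, 15 of the 23 were raised, and without TKO 1, 2 of 24 were raised and 3 lowered.

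Of 23 H3K9 methylation genes only Atf7ip rose and none fell. Atf7ip encodes a partner that stabilises Setdb1, and it stood at 104 and 86.3 CPM in Ctrl 1 and Ctrl 2 and 267 and 329.9 CPM in TKO 1 and TKO 2 (log2 change 1.68 ± 0.15 (SE), adjusted p = 0.0042). Of 22 imprinted genes Mest (2.84, 4.87, 31.4 and 18.8 CPM), Nnat (6.23, 6.82, 15.7 and 17 CPM) and Peg3 (87.9, 82.9, 189 and 148 CPM) rose and Dlk1 fell. The raised count was 0 without Ctrl 1, 1 without Ctrl 2, 3 without TKO 1 and 6 without TKO 2, and no imprinted gene was lowered with doublets left out. Of 9 interferon and antiviral genes that could be tested, Bst2 (tetherin, 1.22, 2.34, 13.1 and 42.7 CPM) and Oas1a (0, 0.195, 2.62 and 3.1 CPM) rose. Over all genes tested 3.12% rose. A member near 0 in Ctrl, such as Oas1a, could be tested only if it was higher in TKO. Isg15 stood at 0.135, 0.195, 2.18 and 32.5 CPM (adjusted p = 0.0506), with nearly all of it in TKO 2. The list had no raised gene without Ctrl 1, 1 without Ctrl 2, 1 without TKO 2, and 8 of 12 without TKO 1.

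Some called genes were markers of other cell types. Mlana, a melanocyte gene, stood at 0.271 and 0 CPM in Ctrl 1 and Ctrl 2 and 13.1 and 12.4 CPM in TKO 1 and TKO 2, and its call was lost when members high in other cell types' transcripts were left out. The melanocyte list summed to 7.72, 7.40, 26.2 and 93.4 CPM. Hba-a1, an alpha globin gene of red cells, stood at 3.39, 4.28, 25.3 and 242 CPM and was called as raised, but 1042 of its 1095 UMIs in TKO 2 lay in 1 cell, and the call was lost without either Ctrl library and at 5000 UMIs.

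After thinning each cell to 5000 UMIs, which left out 3 members in each Ctrl library, at least 1 of the 10 raised genes with the largest fitted log2 change was detected in 0.519% and 0.608% of Ctrl members and in 69.7% and 65.7% of TKO members. The single genes ranged from 3100003L05Rik, in 3.37% and 0.505% of TKO members, to Gm42653, in 52.8% and 38.4%. At least 2 were detected in 0 of 385 and 0 of 329 Ctrl members at that depth, against 33.7% and 31.3% of TKO members. In the collagen-high cells of the same libraries, at least 1 was detected in 1.98%, 1.94%, 4.15% and 7.81%, at median depths of 14896, 13205, 18355 and 15632.5 UMIs before thinning. At least 1 of the 10 lowered genes chosen likewise was detected in 59.5% and 61.1% of Ctrl members and 8.99% and 10.1% of TKO members, and in 100%, 100%, 99.0% and 99.2% of the collagen-high cells. These genes were chosen for this difference, so the shares are a description.

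The TKO effect was then set beside that in cycling basal cells, which met every term except the cell cycle terms (782 and 518 cells in Ctrl, 518 and 706 in TKO). The effect differed for 191 of 15228 genes tested, 1.25%, by an edgeR interaction term with the library as a block. In 70 the effect in cycling cells was more positive and in 121 more negative. The count was 89 by DESeq2, 838 without TKO 1, 1537 without TKO 2 and 14 at 5000 UMIs per cell or with cells carrying transcripts of other types left out.

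Of 24 p53 targets 8 had a more negative effect in cycling cells (Cdkn1a, Trp53inp1, Ccng1, Bax, Gtse1, Ei24, Ckap2 and Polk). None had a more positive one, and 16 had no called difference. The classes were split by S phase and mitosis genes, and how far that selection set the difference was not tested. Trp53inp1 changed by 2.38 ± 0.19 in resting cells and by 1.01 in cycling cells on the log2 scale, an interaction of -1.39 (adjusted p = 0.00106, edgeR). Cdkn1a changed by 3.19 ± 0.24 and 2.39 (interaction -0.80, adjusted p = 0.025). In the glycolysis and hypoxia list 5 of 21 genes had a more positive effect in cycling cells (Aldoa, Gapdh, Pgk1, Pgam1 and Ldha). None had a more negative one. Ldha changed by 0.88 ± 0.11 in resting and 1.25 in cycling cells (interaction 0.35, adjusted p = 0.0354).

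Single genes with a different effect included Kitl (log2 change 1.48 ± 0.18 in resting and 0.46 in cycling cells, adjusted p = 0.00895) and Sox5, which fell further in cycling cells (-3.19, adjusted p = 0.025). Slc2a3, a glucose transporter, stood at 18.7, 13.8, 106 and 41.2 CPM in resting cells and at 4.84, 5.68, 81.2 and 53.2 CPM in cycling cells. The lncRNA Gm41804 stood at 2.03, 1.56, 88.6 and 78.6 CPM in resting cells and at 0.721, 0.746, 131 and 128 CPM in cycling cells. The gain of both was larger in cycling cells on the log2 scale, but 83 of the 138 Slc2a3 UMIs of Ctrl 1 resting cells lay in 1 cell.

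Against suprabasal cells, which met every term except the Krt1 and Krt10 limit, the effect differed for 264 of 12962 genes, 2.04%, with 62 more positive and 202 more negative in suprabasal cells. The TKO sums held only 15 and 76 suprabasal cells, and the count was 1148 without TKO 1, 577 without TKO 2, 158 without Ctrl 1 and 26 at 5000 UMIs per cell. Krt16, a keratin of activated epidermis, stood at 34.7, 31.2, 2.62 and 21.9 CPM in resting cells and at 71.6, 154, 229 and 1681 CPM in suprabasal cells. Hopx, a cofactor of differentiation, stood at 23.4, 41.5, 57.6 and 7.97 CPM in resting cells and at 6.87, 3.41, 105 and 191 CPM in suprabasal cells. In suprabasal cells both were higher in each TKO library than in each Ctrl library. The resting values rested on few cells. For Krt16, 90 of 256 UMIs in Ctrl 1 and 113 of 160 in Ctrl 2 lay in 1 cell each. For Hopx, 163 of 173 UMIs in Ctrl 1, 151 of 213 in Ctrl 2 and 129 of 132 in TKO 1 lay in 1 cell each, so neither gene is given a direction in resting cells. Of 22 basement membrane genes 7 had a more negative effect in suprabasal cells and none a more positive one.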

How the data were processed

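The authors deposited, for each of 4 libraries, the filtered and not normalised UMI counts of genes in cells, made with Cell Ranger on GRCm39. The file headers name Cell Ranger 7.1.0 and the methods another version. The strand setting and the use of intronic reads are not given in the sources used here. Groups and replicate numbers came from the labels.

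Cells were selected as described, counts were summed over the members of each library, and genes were tested with edgeR 4.0.16 (quasi-likelihood, TMM, filterByExpr, genotype as the only term, R 4.3.3) with Benjamini-Hochberg adjustment over all genes tested. The interaction tests used 8 sums with the library as a block. Alternatives were DESeq2 1.42.0, other scaling, no expression filter, each library left out, thinning to 5000 UMIs, doublets (Scrublet in scanpy 1.11.5, top-scoring share at 0.8% per 1000 barcodes) left out, cells with transcripts of other types left out, other limits and replicate blocks. A fold against a group at 0 used 3 UMIs over the group as its limit.

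The members, the gene lists and the rule for named genes were chosen with earlier results of these data known. Named genes were the 10 raised and 10 lowered with the largest fitted log2 change (mean of at least 10 CPM in the higher group), the 10 of each with the largest CPM difference, up to 6 called and 3 uncalled members per list, the 5 largest interactions in each direction, the targeted genes and the markers. Lrrc20, Gm28447, the genes of the other runs and some further list members (such as Mdm2, Bax and Grik4) fell outside this rule and were chosen after their values were seen. Among the named genes, 124 of 173 overlap a second gene in the annotation (59 do so on their own strand), and their reads are uncertain where it is expressed. Positions came from GENCODE vM39, and 744 of 56980 genes had none.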

Additional observations from a re-analysis of the deposited data

Results flagged for a closer look

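The TKO effect differed between classes by the edgeR interaction test for 191 genes against cycling cells and for 264 genes against suprabasal cells. Each value below is the log2 TKO effect in the other class minus that in resting basal cells.

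Against cycling cells, the 5 most positive genes were Plac8 (6.43), Nrk (5.90), Gm41804 (1.92), Slc2a3 (1.61) and Fggy (1.21). The 5 most negative were Hbb-bt (-7.33), Nrxn3 (-7.18), Hba-a1 (-6.71), Hba-a2 (-6.22) and Hbb-bs (-5.99). Plac8 had 2, 9, 3 and 1 UMIs in the resting cells of Ctrl 1, Ctrl 2, TKO 1 and TKO 2, and 1, 0, 74 and 56 in the cycling cells. Nrxn3 had 2, 1, 9 and 2 UMIs in resting cells and 108, 1, 6 and 1 in cycling cells. The globin gene Hbb-bs stood at 7.32, 12.5, 2.62 and 505 CPM in resting cells and at 8.96, 745, 5.10 and 208 CPM in cycling cells. In resting cells 2190 of the 2284 Hbb-bs UMIs of TKO 2 lay in 1 cell.

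Against suprabasal cells, the 5 most positive genes were Krt6a (10.10), C1qc (8.67), Pde7b (5.51), Hopx (5.06) and Krt16 (4.63). The 5 most negative were Hbb-bt (-5.98), Hbb-bs (-5.22), Gli1 (-3.95), Chrm3 (-3.95) and Hba-a1 (-3.92). Krt6a, a keratin of activated epidermis, stood at 28.2, 49.8, 94.7 and 22.6 CPM in resting cells and at 0, 0.568, 77.9 and 491 CPM in suprabasal cells. In resting cells Krt6a was found in 1, 3, 3 and 9 members, and 1 cell held 208 of 208, 140 of 256, 188 of 217 and 93 of 102 of its UMIs. C1qc, a macrophage gene, had all of its 79 suprabasal UMIs in TKO 2. The Hedgehog target Gli1 had 33, 9, 0 and 1 UMIs in suprabasal cells, and Chrm3 rose in resting cells (1.76, 0.389, 17.5 and 19.5 CPM) and stood at 8.20, 5.11, 4.21 and 7.96 CPM in suprabasal cells. Chrm3 was found in 10 and 10 resting TKO members, and 60 of the 88 UMIs of TKO 2 lay in 1 cell.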

How the results depend on the processing

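The counts moved with the settings, and the cause was not tested except that fewer libraries or cells enter some of them. Genes raised in TKO numbered 113 to 1241 and lowered 21 to 985 when 1 library was left out, 1060 and 689 with no expression filter, 126 and 27 with cells carrying transcripts of other types left out (407 and 133 at the limit of 50), 259 and 83 with a keratin limit of 100, 651 and 358 with a crossed replicate block, 671 and 237 with stress cells kept, and 221 raised at 5000 UMIs per cell. The crossed block, the kept stress cells and the limit of 50 on transcripts of other types were chosen after seeing the data. DESeq2 gave 480 and 184. Of the 406 raised genes 372 were shared with DESeq2, 108 with the fit without Ctrl 1, 150 without Ctrl 2 and 119 with cells carrying transcripts of other types left out.

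The cycling interaction gave 89 genes by DESeq2, 108 by RLE scaling, 930 with no filter, 14 at 5000 UMIs, 296 with doublets left out, 14 with cells carrying transcripts of other types left out and 198 to 1537 without 1 library. The suprabasal interaction gave 103, 643 with no filter, 26 at 5000 UMIs, 114 with cells carrying transcripts of other types left out and 158 to 1148 without 1 library.

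The difference in share was -6.85 to -2.96 points without 1 library and turned to 0.86 with cells carrying transcripts of other types left out, against -4.60 at the limit of 50. Reversed log2 values were Hbb-bs, -1.82 to 5.73 and Krt19, -3.78 to 3.03 without 1 library (negative without TKO 2 and without TKO 1), Krt19 -4.61 at 5000 UMIs, and Nrg1 -0.46 (stress cells kept). Reversed interactions were Hbb-bt, 1.18 against cycling and 0.70 against suprabasal cells with cells carrying transcripts of other types left out, and, against suprabasal cells without 1 library, C1qc (-1.28 to 9.87), Pde7b (-2.24 to 6.06) and Hbb-bs (-5.33 to 0.40), each reversed without TKO 2.

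The replicate numbers name no shared litter, and the deviations of replicate 1 in Ctrl and TKO had r = -0.162 across 3796 genes, so they were not taken to pair the samples. With a replicate block 427 genes were raised and 144 lowered, and 10 of 88 named genes lost the call. TKO 1 gave the smallest sum, from 89 members, and the depth limits which differences in genes of low level can be called.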
